A study of Mus musculus with 6 samples.

Results

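Interferon-induced genes were followed in mouse Th17 cultures in which mitochondrial respiration was inhibited. The set comprised 9 genes. These were the transcription factor genes Irf1, Irf7 and Irf9, the GTPase genes Gbp2, Irgm1 and Igtp, and the nucleic acid sensor gene Zbp1. The others were the ubiquitin-like modifier gene Isg15 and the gene of the viral tether Bst2. Of the 9, 7 matched a row of the expression table of 10041 rows, and all 7 passed the filter on low values that left 9986 genes tested. Irf7 and Isg15 matched no row and are not analysed here. Rows were matched to the set by symbol alone, and the set was chosen with earlier results of these data known.

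The comparison was between cultures that received oligomycin (2.5 ng/ml), an inhibitor of the mitochondrial ATP synthase, and cultures that received the vehicle DMSO, with 3 libraries in each group. All started from naive CD4 T cells of mice and were polarised for 48 h towards helper T cells of the IL-17 type. The cytokines were IL-23 at 10 ng/ml, TGF-β1 at 2.5 ng/ml and IL-6 at 20 ng/ml, and the stimulating antibodies were anti-CD28 at 1 µg/ml and anti-CD3e bound to the plate at 10 µg/ml. No interferon is named among the additions, and the strain of the mice is not given in the sources used here. The deposited expression values were assumed to be FPKM, a unit that the column names do not give. FPKM is the number of fragments of a gene scaled by the length of its transcripts and by the total of mapped fragments. A value is therefore relative to the other transcripts of its library. The labels do not say whether the 3 libraries of a group came from separate animals or cultures, so p-values measure the spread between these libraries, which may be technical.

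Interferons act through surface receptors that activate JAK kinases and STAT transcription factors. Type I interferons (interferon-α and -β) lead to a complex with IRF9 that binds the interferon-stimulated response element (ISRE), while interferon-γ acts through the gamma-activated site (GAS). IRF1 is itself induced through GAS elements and then binds ISRE-like sequences. The products of the target genes restrict viruses and intracellular bacteria and parasites, and T cells express many of them at a basal level.

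The letters of both elements were searched in RefSeq promoter windows (GRCm38.p6) of 300 bases, 250 before and 50 from each transcript start. The ISRE core was written as GAAANNGAAA and searched on both strands, and the GAS core as TTCNNNGAA, which reads the same on both strands. Of the 7 members with values, 6 matched a window, and Zbp1 did not. The 150 bases before the start are shown for the 5 members that held a match, because they differ in which element they carry. As described further on, Gbp2 and Igtp were called lower with oligomycin, while Irgm1, Bst2 and Irf1 were not called. Capitals mark the matched letters, and each sequence reads 5′ to 3′ on the strand of its gene.
Gbp2 (chr3:142620513-142620662, plus strand): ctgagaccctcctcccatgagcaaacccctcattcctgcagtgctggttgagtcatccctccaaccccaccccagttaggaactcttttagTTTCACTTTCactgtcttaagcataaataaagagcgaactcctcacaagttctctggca
Igtp (chr11:58199406-58199555, plus strand): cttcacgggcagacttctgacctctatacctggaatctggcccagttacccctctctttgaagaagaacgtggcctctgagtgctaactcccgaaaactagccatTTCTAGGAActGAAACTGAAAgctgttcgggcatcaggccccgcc
Irgm1 (chr11:48871421-48871570, minus strand): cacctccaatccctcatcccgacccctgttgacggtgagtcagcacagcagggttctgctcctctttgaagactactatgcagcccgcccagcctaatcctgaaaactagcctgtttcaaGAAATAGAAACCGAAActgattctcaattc
Bst2 (chr8:71537473-71537622, minus strand): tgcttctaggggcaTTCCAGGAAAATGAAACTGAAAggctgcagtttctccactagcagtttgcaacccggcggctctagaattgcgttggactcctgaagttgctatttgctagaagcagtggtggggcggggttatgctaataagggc
Irf1 (chr11:53769864-53770013, plus strand): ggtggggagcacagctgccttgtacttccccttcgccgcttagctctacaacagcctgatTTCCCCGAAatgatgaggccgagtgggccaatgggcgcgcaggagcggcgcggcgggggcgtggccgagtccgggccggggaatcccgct

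Gbp2 held 1 ISRE core, on the reverse strand, whose first base lies 59 bases before the start. Igtp held a GAS core beginning 45 bases and an ISRE core beginning 34 bases before its start. In Irgm1 2 overlapping ISRE cores began 30 and 24 bases before the start, and in Bst2 2 overlapping ISRE cores began 130 and 124 bases before it, the first of them overlapping a GAS core that began at 136. Irf1 held a GAS core 90 bases before the first of its 2 listed starts. Neither window of Irf9 held either core. Among all 32851 windows, 3.44% held the ISRE core and 8.3% the GAS core. A match describes the letters of a window and does not show that a factor binds there.

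**Figure D1:**
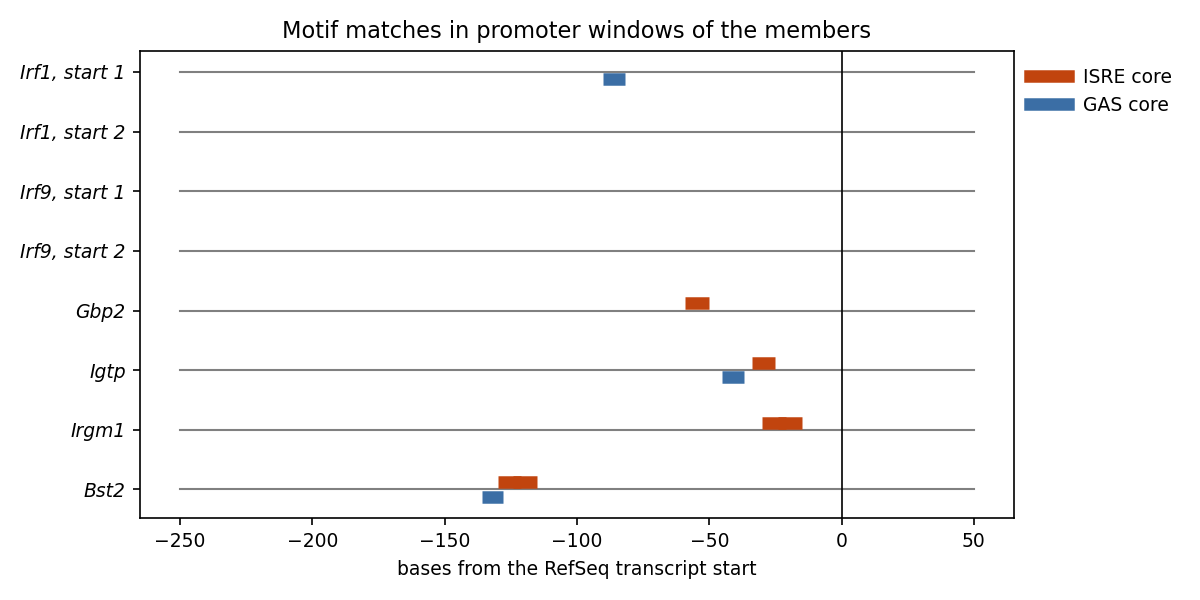
Positions of the ISRE core (orange) and GAS core (blue) in the 300-base RefSeq promoter windows of 6 members, in bases from the transcript start; Irf1 and Irf9 have 2 listed starts each. Matches lie between 136 and 15 bases before the start, and the windows of Irf9 hold none.

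With oligomycin, 3 members fell (Gbp2, Igtp and Zbp1), 1 rose (Irf9) and 3 were not called (Irf1, Irgm1 and Bst2). A gene was called where limma's moderated test gave an adjusted p under 0.05 over all 9986 genes tested, a rule that called 14% of those genes higher and 16.1% lower with oligomycin, 30.2% in all. Fits were made on log2(FPKM + 1). The members' log2 changes ran from -1.43 to 0.72 with a median of 0.02, beside a median of 0.00 over all genes tested, so the set did not move one way. The libraries of both groups did not overlap for 6 of the 7 members, 3 higher and 3 lower with oligomycin. Such separation held for 23.1% of all genes in the higher and 24.3% in the lower direction, 47.3% in all. As these are bulk cultures, a lower value from fewer cells that express a gene and one from less RNA per cell cannot be told apart. Rows of small RNA genes took 78.7 to 80.2% of the summed FPKM in the oligomycin libraries and 69.7 to 75.7% in the DMSO libraries. With every library rescaled to an equal sum of the remaining rows, 2 members rose and 3 fell, and over all genes 1891 were higher and 1320 lower with oligomycin, against 1403 and 1610 as deposited.

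**Figure D2:**
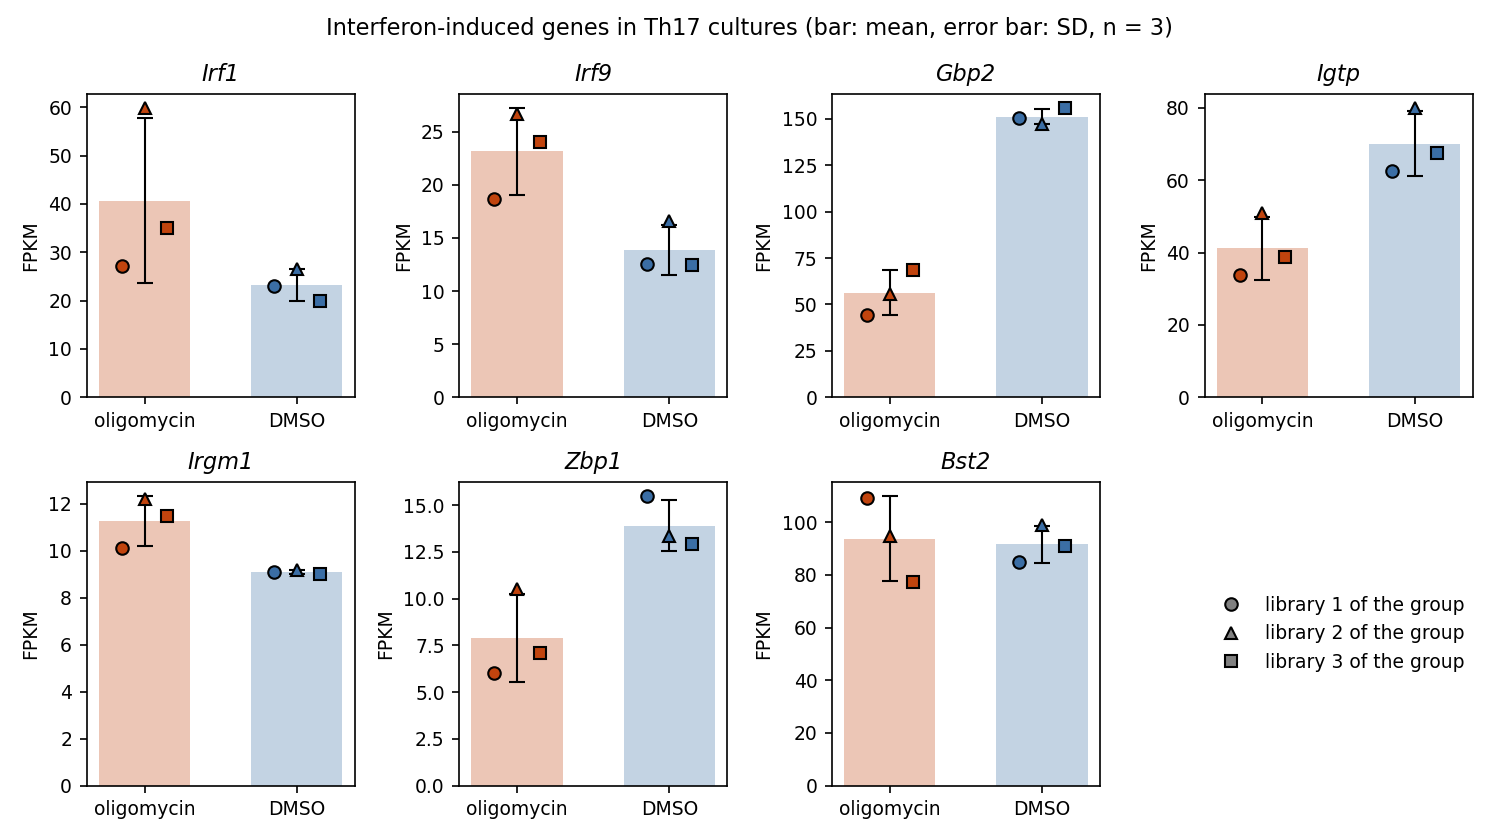
FPKM of the 7 members in each library, oligomycin on the left and DMSO on the right of each panel (bars: mean; error bars: SD, n = 3; marker shapes: column number within a group; whether equal numbers pair libraries across groups is undecided). The groups do not overlap for any member except Bst2.

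**Figure D3:**
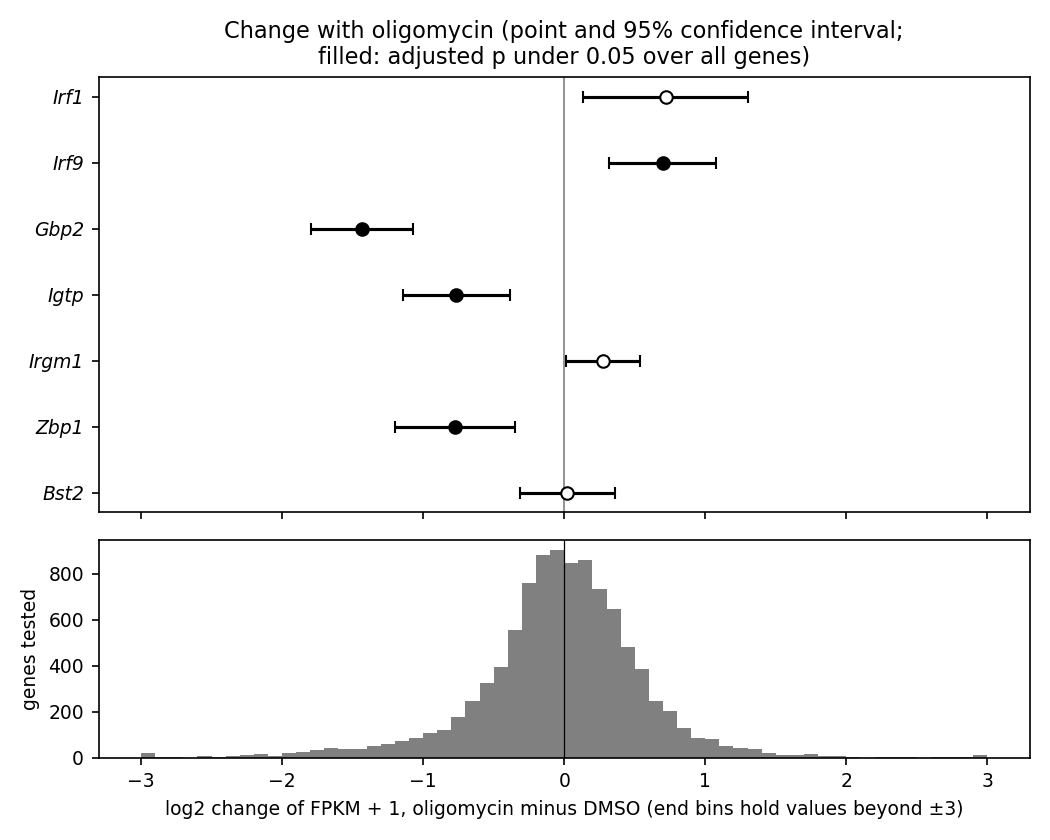
Upper panel, log2 change of FPKM + 1 (oligomycin minus DMSO) of each member with its 95% confidence interval, filled where called; lower panel, the same quantity over all 9986 genes tested. The intervals of Gbp2, Igtp and Zbp1 lie below 0, those of Irf1, Irf9 and Irgm1 above it, and that of Bst2 spans it.

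Irf9 (chromosome 14, 55603985 to 55610030, GRCm38), the DNA-binding subunit of the type I interferon complex, was the member that rose. It had 18.7, 26.7 and 24.1 FPKM with oligomycin, against 12.5, 16.6 and 12.4 FPKM with DMSO. All oligomycin libraries lay above all DMSO libraries, with means of 23.2 ± 4.09 FPKM with oligomycin and 13.8 ± 2.37 FPKM with DMSO (SD, n = 3 each), a 1.67-fold higher mean. The log2 change was 0.70 (SE 0.17, 95% confidence interval 0.32 to 1.08, adjusted p = 0.0148). The call was lost without oligomycin replicate 3 (adjusted p = 0.0503), DMSO replicate 1 (0.0544) or DMSO replicate 3 (0.0594), while the log2 change stayed between 0.59 and 0.84 without any 1 library.

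Irf1 (chromosome 11, 53770014 to 53778374), a transcription factor that interferon-γ induces and that drives many GTPase genes, had 27.2, 59.9 and 35.1 FPKM with oligomycin, against 22.98, 26.5 and 20.0 FPKM with DMSO. The groups did not overlap, yet oligomycin replicate 2 stood far above the others and the means were 40.7 ± 17.1 FPKM with oligomycin and 23.2 ± 3.29 FPKM with DMSO (SD, n = 3 each). The log2 change was 0.72 (SE 0.26, interval 0.14 to 1.3) and was not called (adjusted p = 0.0637). Irf1 was called without oligomycin replicate 1 (log2 change 0.96, adjusted p = 0.0162), which is the lowest library of its group for this gene. Without oligomycin replicate 2, the highest, its log2 change was 0.41 (adjusted p = 0.101). It was also called with each library rescaled to an equal FPKM sum (adjusted p = 0.043) and without rows sharing a locus or naming several genes (0.0424).

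Gbp2 (chromosome 3, 142620663 to 142638008), a guanylate-binding protein that is recruited to the vacuoles of intracellular pathogens, showed the steepest change of the set. It had 44.5, 55.5 and 68.7 FPKM with oligomycin, against 151, 147 and 156 FPKM with DMSO. All oligomycin libraries lay far below the tightly grouped DMSO libraries, and the mean was 2.69-fold lower at 56.2 ± 12.2 FPKM with oligomycin, against 151 ± 4.29 FPKM with DMSO (SD, n = 3 each). The log2 change of -1.43 (SE 0.16, interval -1.80 to -1.07, adjusted p = 0.000471) lay at the 2.7th percentile of all genes tested. It remained called under all 14 alternatives of processing and library choice, with log2 changes from -1.59 to -1.26.

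Igtp (chromosome 11, 58199556 to 58207592), which encodes an immunity-related GTPase of the regulatory IRGM group, fell as well. It had 33.9, 50.9 and 38.8 FPKM with oligomycin, against 62.6, 80.0 and 67.6 FPKM with DMSO. Every oligomycin library was below every DMSO library, and the means were 41.2 ± 8.74 FPKM with oligomycin and 70.1 ± 8.93 FPKM with DMSO (SD, n = 3 each), 1.70-fold lower with oligomycin. Its log2 change was -0.77 (SE 0.17, interval -1.15 to -0.38, adjusted p = 0.0105), and the call held under all 14 alternatives (adjusted p from 0.00269 to 0.0394).

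Irgm1 (chromosome 11, 48865249 to 48871346), a second regulatory GTPase of the IRGM group, was not called. It had 10.1, 12.2 and 11.5 FPKM with oligomycin, against 9.11, 9.185 and 9.004 FPKM with DMSO. The oligomycin libraries were all slightly above the tightly grouped DMSO libraries, at means of 11.3 ± 1.06 FPKM with oligomycin and 9.10 ± 0.0913 FPKM with DMSO (SD, n = 3 each). The log2 change of 0.28 (SE 0.12, interval 0.01 to 0.54) had an adjusted p of 0.103 (between 0.0543 and 0.232 under the 14 alternatives). The intervals of Irgm1 and Igtp do not overlap, but the difference between them was not tested.

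Zbp1 (chromosome 2, 173206612 to 173218922), a sensor of Z-form nucleic acids that can start necroptosis and apoptosis, had 6.01, 10.5 and 7.11 FPKM with oligomycin, against 15.5, 13.3 and 12.9 FPKM with DMSO. The groups did not overlap, and the means were 7.89 ± 2.36 FPKM with oligomycin and 13.9 ± 1.37 FPKM with DMSO (SD, n = 3 each), 1.76-fold lower with oligomycin. Its log2 change was -0.77 (SE 0.19, interval -1.20 to -0.35, adjusted p = 0.0156). The call was lost without oligomycin replicate 3 (adjusted p = 0.0533) or DMSO replicate 1 (0.0566), with log2 changes of -0.73 and -0.70.

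Bst2 (chromosome 8, 71534262 to 71537437), also called tetherin because it holds budding virions at the cell surface, had 109, 94.7 and 77.3 FPKM with oligomycin, against 85.0, 98.8 and 91.0 FPKM with DMSO. The groups overlapped fully, with means of 93.8 ± 16.0 FPKM with oligomycin and 91.6 ± 6.93 FPKM with DMSO (SD, n = 3 each). The log2 change was 0.02 (SE 0.15, adjusted p = 0.922), and its interval of -0.32 to 0.36 leaves room for a change of that size either way. The sign was negative without oligomycin replicate 1 (-0.10) or DMSO replicate 1 (-0.03).

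In FPKM, which are divided by transcript length, the order of the members differed between the groups. With oligomycin Bst2 had the highest mean, followed by Gbp2, Igtp, Irf1, Irf9, Irgm1 and Zbp1. With DMSO Gbp2 had the highest mean, followed by Bst2, Igtp, Irf1, Zbp1, Irf9 and Irgm1. The ranges of the neighbours Igtp and Irf1 overlapped in the oligomycin libraries, as did those of Gbp2 and Igtp and of Irgm1 and Zbp1. In the DMSO libraries Zbp1 and Irf9 overlapped, and the other neighbours in either order did not. No row of another gene overlapped the locus of any of the 7 members.

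The members also differed in how their oligomycin libraries were spread. Oligomycin replicate 2 was the highest of its group for 5 of the 7 members (Irf1, Irf9, Igtp, Irgm1 and Zbp1), replicate 1 for Bst2 and replicate 3 for Gbp2. Among the 108 tested genes of the interferon pathway lists described next, replicate 2 was the highest in 74 (68.5%), beside 40.2% of all 9986 genes tested. Ifng, the gene of interferon-γ, was also highest in that library, at 4.36, 6.48 and 1.3 FPKM in the 3 oligomycin libraries, against 0.606, 1.03 and 0.334 FPKM with DMSO. The part of Ifng in these values was not tested.

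**Figure D4:**
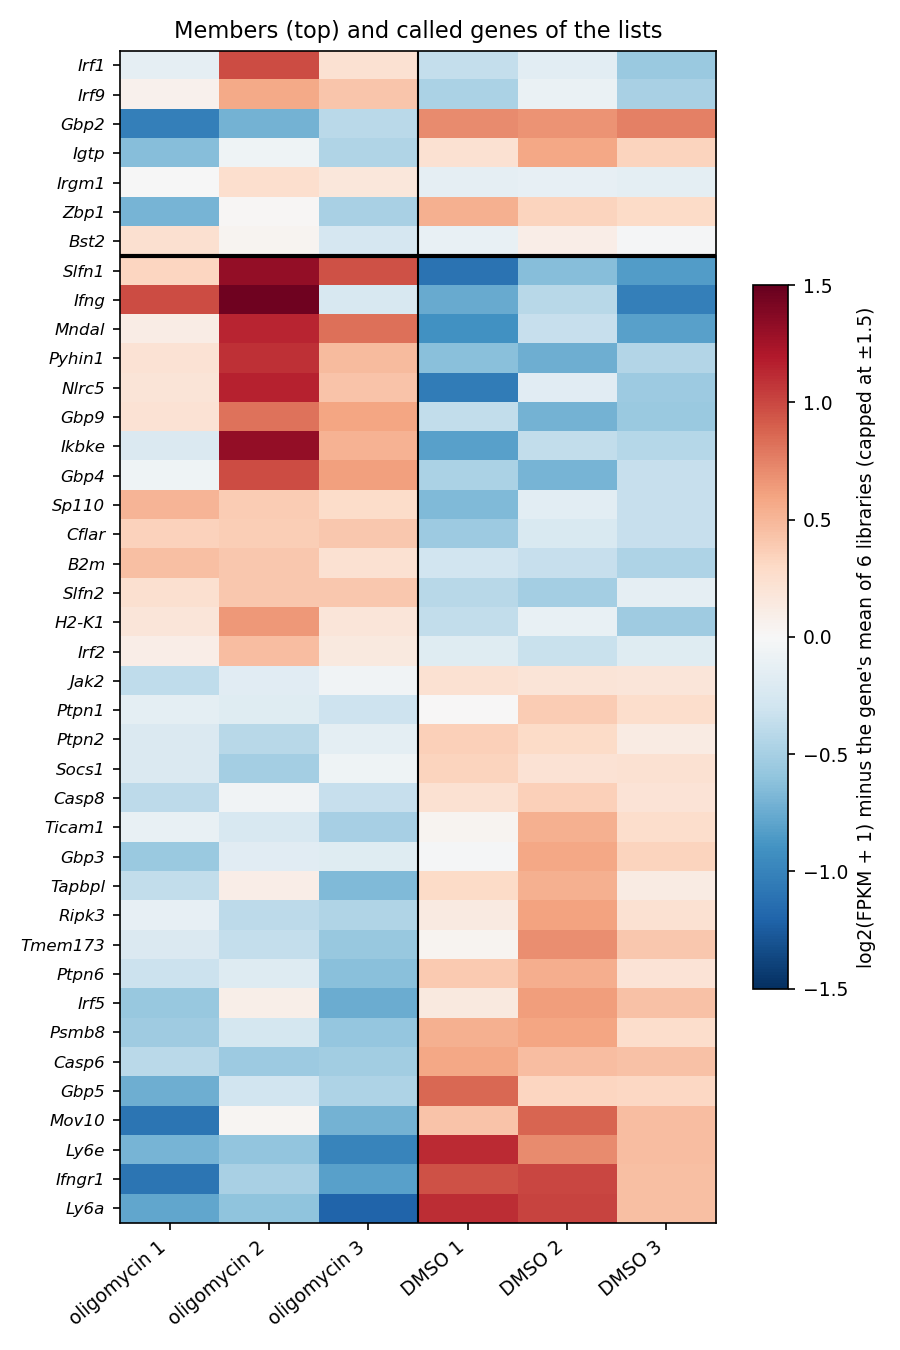
Deviation of log2(FPKM + 1) from each gene's mean of the 6 libraries, for the 7 members (above the line) and the called genes of the pathway lists that the text names, with the oligomycin libraries on the left and the DMSO libraries on the right. Irf1, Ifng, Ikbke and Slfn1 are among the genes whose highest value lies in oligomycin replicate 2. Gbp9, Mndal and Pyhin1, shown among the called genes, passed the filter through the oligomycin libraries alone.

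The wider interferon pathway was read through 11 gene lists, which held 191 genes beside the members. Of these, 112 had a row and 108 were tested. Among the 108, 16 rose, 23 fell and 69 were not called, with a median log2 change of 0.12; the shares over all genes are those given with the members, 14% and 16.1%. Of the 16, 3 (Gbp9, Mndal and Pyhin1) reached the minimum of 1 FPKM in the oligomycin libraries alone, so that the filter admitted them through the group in which they are high; without them 13 rose.

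At the top of the pathway, the gene of the ligand-binding interferon-γ receptor chain, Ifngr1, fell, while Ifng, at a low level, rose. Ifngr1 had 16.8, 26.3 and 20.6 FPKM with oligomycin, against 72.8, 75.4 and 51.2 FPKM with DMSO. All oligomycin libraries lay far below the DMSO libraries (log2 change -1.60, SE 0.20, adjusted p = 0.00077), and the call held without any 1 library. The second chain, Ifngr2, had 41.3, 44.0 and 41.4 FPKM with oligomycin, against 37.2, 34.5 and 32.0 FPKM with DMSO, and was not called (adjusted p = 0.08). Ifnar1 and Ifnar2, the chains of the type I interferon receptor, had log2 changes of -0.04 and -0.03 (adjusted p = 0.852 and 0.861), and both signs flipped with libraries rescaled to equal sums. Of the 11 tested genes of receptors, JAK kinases and STAT factors, 2 fell (Ifngr1 and Jak2) and 0 rose in limma. Their median log2 change was -0.02. At an unadjusted p under 0.05, 2 were lower and 3 higher, but the share of all genes at that threshold is not given here. Under quantile normalisation and with equal sums 3 rose and 1 fell. Jak2, the kinase bound to the interferon-γ receptor, had a log2 change of -0.40 (adjusted p = 0.0346). Leaving out any library except oligomycin replicate 3 ended its call (adjusted p from 0.0545 to 0.107), as did quantile normalisation (0.165) and equal sums (0.115). Jak1, with a log2 change of 0.42 (adjusted p = 0.0516), was not called, but was called as higher under quantile normalisation (0.023), with equal sums (0.0171) and without rows sharing a locus or naming several genes (0.0414). Ifng had a log2 change of 1.47 (adjusted p = 0.0243), which was not called without oligomycin replicate 1 (0.0574), oligomycin replicate 2 (0.0558), DMSO replicate 1 (0.0653) or DMSO replicate 3 (0.0789). With a pseudocount of 0.1 in place of 1 it was 2.30.

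Of 10 tested genes of inhibitors of the pathway 4 fell (Ptpn6, Ptpn2, Socs1 and Ptpn1), 1 rose (Irf2) and 5 were not called, with a median log2 change of 0.05. Ptpn6, which encodes the phosphatase SHP-1, averaged 68.6 ± 10.4 FPKM with oligomycin and 116.8 ± 14.1 FPKM with DMSO (SD, n = 3 each; log2 change -0.76, adjusted p = 0.00692), and held without any 1 library. Ptpn2, a phosphatase of JAK1, and Socs1, a JAK inhibitor that interferons induce, had log2 changes of -0.52 (adjusted p = 0.0151 and 0.022). Ptpn2 was not called without DMSO replicate 1 (0.0634) or 2 (0.0512). Socs1 was not called without any 1 of the DMSO libraries (0.0546 to 0.0795), nor under quantile normalisation (0.0891) or equal sums (0.056). Ptpn1, another phosphatase of JAK kinases, had a log2 change of -0.43 (adjusted p = 0.0364) and lost its call when oligomycin replicate 2 or 3 or DMSO replicate 2 or 3 was left out (0.0579 to 0.124), under quantile normalisation (0.0989) and with equal sums (0.0514). The list held 2, 1 and 2 falls without DMSO replicates 1, 2 and 3, and 2 falls under quantile normalisation and with equal sums. Irf2 is described with the IRF genes.

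Among the other IRF genes and partners, 1 of 9 rose and 1 fell, with a median log2 change of 0.04. Irf2, whose product competes with IRF1 for the same sites, had 10.5, 13.9 and 10.9 FPKM with oligomycin, against 8.49, 7.55 and 8.53 FPKM with DMSO. The groups did not overlap (log2 change 0.47, adjusted p = 0.032), but Irf2 was called without oligomycin replicate 1 and not without any other 1 library (adjusted p from 0.0564 to 0.0985). Irf5, a factor downstream of Toll-like receptors, had a log2 change of -0.81 (adjusted p = 0.0339), not called without oligomycin replicate 1 or 3 or DMSO replicate 2 or 3 (0.0735 to 0.108). Irf4, which T cell receptor signals induce and Th17 cells require, was the most abundant gene of the list, at 373 ± 56.4 FPKM with oligomycin and 383 ± 30.3 FPKM with DMSO (SD, n = 3 each; log2 change -0.05, adjusted p = 0.838). Irf8 stood at 82.3 ± 26.9 FPKM with oligomycin and 81.2 ± 22.5 FPKM with DMSO (SD, n = 3 each; adjusted p = 0.992). Irf3, the factor that nucleic acid sensors activate, had a log2 change of 0.31 (adjusted p = 0.129).

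In the list of sensors and adaptors upstream of IRF3 and IRF7, 2 of 11 genes fell, 1 rose and 8 were not called, with a median log2 change of 0.11. Tmem173, which encodes the DNA-sensing adaptor STING, had 39.3, 35.7 and 30.7 FPKM with oligomycin, against 47.3, 75.1 and 60.9 FPKM with DMSO. It was lower in every oligomycin library (log2 change -0.76, adjusted p = 0.0137), and was not called without oligomycin replicate 3 (0.0516). Ticam1, the gene of the Toll-like receptor adaptor TRIF, had a log2 change of -0.56 (adjusted p = 0.0406) and Ikbke, the gene of a kinase of IRF3, one of 1.07 (0.0414). Ticam1 was not called without oligomycin replicate 2 or 3 or DMSO replicate 2 or 3 (0.0619 to 0.134), and Ikbke was called only without oligomycin replicate 1 among the settings that left out 1 library (0.0634 to 0.121 in the others). Without oligomycin replicate 2 the log2 change of Ikbke was 0.69.

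Of 21 other interferon-inducible GTPases listed, 7 had a row and 6 were tested: Gbp5 and Gbp3 fell, Gbp4 rose, and Irgm2 and Iigp1 were not called, while Gbp9 passed the filter through the oligomycin libraries alone and is given as values. Gbp5, which takes part in inflammasome activation, had 5.72, 8.18 and 7.10 FPKM with oligomycin, against 19.3, 12.999 and 12.9 FPKM with DMSO. It lay lower in every oligomycin library (log2 change -0.99, SE 0.18, adjusted p = 0.0053), and held without any 1 library. Gbp3, which lies near Gbp2 and Gbp5 on chromosome 3, had a log2 change of -0.60 (adjusted p = 0.0419), not called without oligomycin replicate 1 or 3 or DMSO replicate 2 or 3 (0.0694 to 0.132), or with equal sums (0.0694). Gbp4 had 2.78, 6.80 and 5.08 FPKM with oligomycin, against 1.85, 1.45 and 2.12 FPKM with DMSO. Its log2 change of 1.02 (adjusted p = 0.019) was not called without oligomycin replicate 3 (0.0641) or DMSO replicate 1 (0.0508) or 2 (0.0596). Gbp9 had 1.70, 3.07 and 2.51 FPKM with oligomycin, against 0.804, 0.425 and 0.582 FPKM with DMSO, where no library reached 1 FPKM, and was too low to be tested without any 1 of the oligomycin libraries. Guanylate-binding protein genes are a family of similar sequences, and how reads with several matches were assigned is not given in the sources used here, so levels within the family are uncertain.

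**Figure D5:**
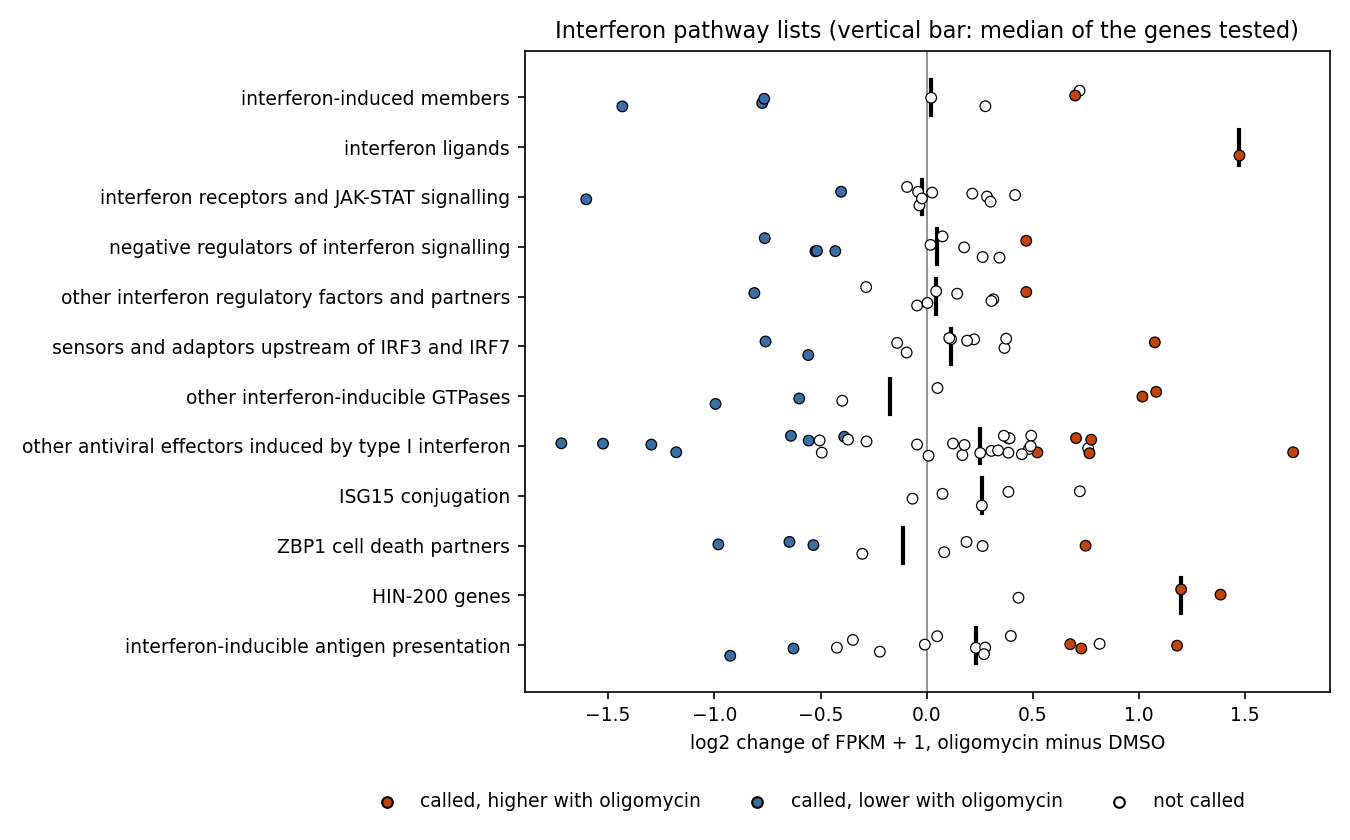
Log2 change of FPKM + 1 (oligomycin minus DMSO) of the 7 members and of the tested genes of 11 pathway lists, coloured where called and white where not, with the median of each row as a vertical bar. Most lists hold called genes on both sides of 0; Gbp9 among the GTPases and Mndal and Pyhin1 among the HIN-200 genes, coloured as called, passed the filter through the oligomycin libraries alone.

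Of 33 tested antiviral effectors induced by type I interferon, 7 fell, 5 rose and 21 were not called, with a median log2 change of 0.25. The falls include rows that share a locus with each other. Without rows sharing a locus or naming several genes, 29 were tested, of which 6 fell and 5 rose. The falls included Ly6a and Ly6e, genes of membrane-anchored Ly6 proteins. Ly6a averaged 128 ± 26.3 FPKM with oligomycin and 426 ± 97.0 FPKM with DMSO (SD, n = 3 each; log2 change -1.72, adjusted p = 0.000839), and Ly6e 30.6 ± 4.42 FPKM with oligomycin and 91.0 ± 21.4 FPKM with DMSO (SD, n = 3 each; -1.52, adjusted p = 0.00068). Mov10, the gene of an RNA helicase, fell by 1.18 on the log2 scale (adjusted p = 0.0129). Slfn1 and Slfn2, Schlafen genes linked to T cell quiescence, rose, Slfn1 to 36.8 ± 12.4 FPKM with oligomycin, against 10.1 ± 1.77 FPKM with DMSO (SD, n = 3 each; log2 change 1.73, adjusted p = 0.0014). Slfn2 had a log2 change of 0.70 (adjusted p = 0.0064) and Sp110, the gene of a nuclear body protein whose locus is shared with another row, one of 0.77 (0.0065). These 6 genes were called without any 1 library. Among the abundant genes that were not called, Shisa5 had a log2 change of -0.28 (adjusted p = 0.237), Zc3hav1, the gene of an antiviral zinc finger protein, 0.18 (0.246), Ifi27l2a -0.49 (0.171) and Ifi35 0.25 (0.316). The falls in this list numbered 3, 4 and 4 without DMSO replicates 1, 2 and 3 and 3 without oligomycin replicate 3 or with equal sums, and the rises 3 without DMSO replicate 3 or oligomycin replicate 3, and 7 without oligomycin replicate 1 or with equal sums.

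The list on the attachment of ISG15 to proteins had 0 calls among 5 tested genes in limma, with a median log2 change of 0.26. The 5 include Usp18 (log2 change 0.07, adjusted p = 0.836), whose product removes ISG15. Arih1, the most abundant of the 5, had a log2 change of -0.07 (adjusted p = 0.642). At an unadjusted p under 0.05, 2 were higher and 0 lower, but the share of all genes at that threshold is not given here. Uba7, the activating enzyme, had 2.58, 6.60 and 4.86 FPKM with oligomycin, against 1.93, 2.85 and 2.16 FPKM with DMSO (log2 change 0.72, adjusted p = 0.0709). The groups overlapped, and Uba7 was called without oligomycin replicate 1 (adjusted p = 0.00766). Trim25 and Herc6, which encode ligases, had log2 changes of 0.39 and 0.26 (adjusted p = 0.0529 and 0.321), and Trim25 was called with equal sums (0.0336) and without rows sharing a locus or naming several genes (0.0495).

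Among genes that act with ZBP1 in cell death, 3 of 8 tested fell (Casp6, Casp8 and Ripk3), 1 rose (Cflar) and 4 were not called, with a median log2 change of -0.11. Casp6, an executioner caspase gene, had 7.31, 6.54 and 6.66 FPKM with oligomycin, against 15.4, 14.1 and 13.9 FPKM with DMSO. The groups were far apart (log2 change -0.98, adjusted p = 0.000544). Ripk3, the kinase that ZBP1 recruits, had 26.7, 21.9 and 20.9 FPKM with oligomycin, against 32.1, 44.6 and 34.2 FPKM with DMSO (log2 change -0.65, adjusted p = 0.0154). Casp8, the gene of the initiator caspase that also restrains necroptosis, had a log2 change of -0.53 (adjusted p = 0.0149). Cflar, which encodes the caspase-8 inhibitor c-FLIP, had 26.8, 27.0 and 27.9 FPKM with oligomycin, against 13.9, 17.6 and 16.1 FPKM with DMSO. It was higher in every oligomycin library (log2 change 0.75, adjusted p = 0.00249). Casp6 and Cflar held without any 1 library, whereas Ripk3 was not called without oligomycin replicate 3 (0.0563) and Casp8 not without oligomycin replicate 3 (0.0545) or DMSO replicate 2 (0.0564), which left 1 fall without oligomycin replicate 3. Ripk1 was not called (log2 change 0.19, adjusted p = 0.266).

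Of the HIN-200 genes, whose family includes sensors of DNA, 3 passed the filter on low values, and 2 of them (Mndal and Pyhin1) did so through the oligomycin libraries alone, so their values are given without a test. Mndal had 1.03, 3.16 and 2.33 FPKM with oligomycin, against 0, 0.475 and 0.0711 FPKM with DMSO. Pyhin1 had 1.09, 2.84 and 1.497 FPKM with oligomycin, against 0.166, 0.075 and 0.323 FPKM with DMSO. Neither reached 1 FPKM in a DMSO library or could be tested without any 1 of the oligomycin libraries. Aim2, a cytosolic DNA sensor of the inflammasome, was not called (log2 change 0.43, adjusted p = 0.184).

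Antigen presentation genes that interferon-γ induces moved both ways, with 3 of 15 higher, 2 lower and a median log2 change of 0.23. Without 1 library the rises numbered from 2 to 4 and the falls from 1 to 2, and with equal sums 5 rose and 1 fell. B2m, the class I light chain, rose to 1158 ± 90.9 FPKM with oligomycin, against 698 ± 42.4 FPKM with DMSO (SD, n = 3 each; log2 change 0.73, adjusted p = 0.00817), as did Nlrc5, the transactivator of class I genes (1.18, 0.0156). Psmb8, an immunoproteasome subunit, fell to 113 ± 13.9 FPKM with oligomycin, against 215 ± 25.3 FPKM with DMSO (SD, n = 3 each; log2 change -0.93, adjusted p = 0.00238). These 3 held without any 1 library. The calls of H2-K1, a class I heavy chain (0.68, adjusted p = 0.0264), and Tapbpl, a peptide editor (-0.63, 0.0446), were each lost without at least 3 libraries: H2-K1 without oligomycin replicate 2 or DMSO replicate 1 or 3 (0.0604 to 0.107), and Tapbpl without each library but oligomycin replicate 2 (0.0627 to 0.13), with equal sums (0.0594) or with no intensity trend (0.0523).

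For each member, the gene with the most similar course over the 6 libraries was sought among 7700 other genes, by the root mean square difference of log2(FPKM + 1) after subtraction of each gene's own mean. These were Idh1 for Gbp2 (0.10), Mpp1 for Zbp1 (0.10), Tcta for Irf1 (0.07), BC037034 for Irf9 (0.05), Atp2b1 for Irgm1 (0.02), Hook2 for Igtp (0.07) and Eef1d for Bst2 (0.03). The interferon lists hold none of these 7 genes. With so many candidates and 6 libraries such likeness is a description of these libraries.

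The identity of the cells was read from marker genes. All 7 T cell markers (Cd3e, Cd3d, Cd3g, Cd4, Lck, Cd28 and Cd2) had a row, and their summed level ran from 1061 to 1230.2 FPKM with oligomycin and from 1236 to 1408 FPKM with DMSO, with Cd2 and Cd28 called lower. Markers of B cells, macrophages and monocytes, dendritic cells and NK cells matched 0 rows of 5, 5, 4 and 4 listed. A missing row gives no value, so it is not a measured absence. Of all 10041 rows, 9986 passed the filter on low values, so genes of low level are scarce in the deposited values. Of 2 CD8 T cell markers Cd8b1 had a row, at 2.41 to 3.30 FPKM with oligomycin and 2.63 to 3.12 FPKM with DMSO. Of 4 markers of plasmacytoid dendritic cells, the main producers of type I interferon, Bst2 and Tcf4 had a row, and Tcf4 lay between 0.627 and 0.864 FPKM with oligomycin and between 1.5 and 1.85 FPKM with DMSO.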

How the data were processed

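RNA-seq libraries of 6 samples were analysed. The authors deposited values per gene and library, which were assumed to be FPKM. The column names give no unit. Per the submitters' processing notes, the build was GRCm38 (mm10), and the tools were Cuffdiff 2.2.1.3, Cuffnorm 2.2.1.1, Cufflinks 2.2.1.0 and TopHat2 2.1.0. Neither the scaling between libraries nor the annotation or handling of reads with several matches is given in the sources used here. Sequencing depth is unknown, because low values shared no common step, so no counting interval is given. Columns name a group and a number absent from the sample titles, so each was mapped to its group only.

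Genes with at least 1 FPKM in at least 3 libraries were tested as log2(FPKM + 1) in limma 3.58.1 (R 4.3.3) with an intensity trend and group as the only term, 2-sided, with Benjamini-Hochberg adjustment over all genes tested; adding 1 understates changes of low genes. Fold values are ratios of mean FPKM. Starts were read as counted from 0 and are printed counted from 1.

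Members and lists were chosen with earlier results of these data known. Named were all members and the nearest gene by profile to each. From each list, the called genes (up to 6 by p) and up to 4 abundant genes not called were named. Ifnar1, Ifnar2, Irf3 and Gm12250 were added after their values were seen. Usp18 was named outside this rule. An item counted in the lists is not reported by name here. Promoter sequences are from RefSeq (GRCm38.p6). Alternatives were a pseudocount of 0.1, no filter, a minimum of 5 FPKM, quantile normalisation, equal FPKM sums without small RNA rows, no intensity trend, rows sharing a locus or naming several genes left out, a replicate block, and each library left out.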

Additional observations from a re-analysis of the deposited data

How the results depend on the processing

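Of 14 alternatives, Gbp2 and Igtp remained called as lower in all, and no called gene named here changed direction. The number of members higher with oligomycin, 1, was 2 with equal FPKM sums, 2 without rows sharing a locus or naming several genes and 2 with the column number as a replicate block, in each case by the call of Irf1, and ran from 0 to 2 when 1 library was left out. The number lower, 3, ran from 2 to 3. The members' median log2 change, 0.02, was 0.20 under quantile normalisation and ran from -0.10 to 0.15 without 1 library; the cause was not tested. Without 1 library the genes called numbered from 780 to 1387 higher and from 989 to 1861 lower, against 1403 and 1610. With equal sums, which moved the median of all genes to 0.09, 1891 were higher and 1320 lower.

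Reversed signs concerned genes that were not called. Ifnar2 had 0.018 under quantile normalisation and 0.063 with equal sums, Irf4 0.23 and 0.056, and Ifnar1 0.054 with equal sums. Without 1 library, log2 changes ran from -0.18 to 0.057 for Ifnar1, from -0.11 to 0.070 for Ifnar2, from -0.16 to 0.052 for Irf4, from -0.24 to 0.22 for Irf8, from -0.10 to 0.15 for Bst2 and from -0.046 to 0.15 for Eef1d.

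Titles share the numbers 17, 42 and 43 between groups and columns the numbers 1 to 3, but no label ties one set to the other. Deviations from the group means correlated at 0.06, 0.25 and 0.13 for columns of equal number, and 5 of 6 libraries correlated best with their own number, so whether the numbers pair libraries is undecided. With the column number as a replicate block, 1668 genes were higher and 1864 lower. Irf1, Jak1 (adjusted p = 0.0235), Uba7 (0.022) and Tcta were then called as higher, and of the antiviral effectors 9 were higher and 8 lower, against 5 and 7. Depth could not be weighed, since FPKM carry no read numbers.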

Other observations

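The gene listed next before Igtp on chromosome 11, Gm12250 (58183843 to 58190198), which RefSeq lists with the synonym Irgb10, was chosen after its values were seen. It encodes an immunity-related GTPase that acts on bacterial membranes in mouse cells. Gm12250 had 1.25, 3.57 and 3.13 FPKM with oligomycin, against 8.36, 8.44 and 7.19 FPKM with DMSO. It was lower in every oligomycin library, with a 3.02-fold lower mean (log2 change -1.36, SE 0.25, adjusted p = 0.00527), and was called without any 1 library. Irgm2, the GTPase gene on the other side of Igtp, had 4.32, 5.87 and 5.85 FPKM with oligomycin, against 7.27, 8.62 and 6.19 FPKM with DMSO, and was not called (log2 change -0.40, adjusted p = 0.0969).

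The ISRE core was set beside the calls of all genes with a promoter window. Of 257 tested genes with the core, 45 (17.5%) were higher and 41 (16%) lower with oligomycin, against 13.9% and 16% of 6847 genes without it. Among genes of the pathway lists, 6 of 22 with the core were higher and 4 lower, against 6 and 13 of 65 without it. Gbp9, Mndal and Pyhin1, which passed the filter through the oligomycin libraries alone, were not left out of these counts. For the GAS core, 12.2% of 607 genes with it were higher and 15.3% lower, against 14.2% and 16.1% of 6497 without it. Among genes of the pathway lists, 2 of 17 with the GAS core were higher and 3 lower, against 10 and 14 of 70 without it. Gbp9, Mndal and Pyhin1 were not left out here either. These shares are descriptions, and no test was run on them.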
